A study of Bos taurus with 39 samples.

Results

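The comparison described here is between bovine oocytes matured for 22 h without their cumulus cells and oocytes matured for the same time inside their cumulus-oocyte complexes (COCs). It holds 6 of the 39 libraries of the series, chosen by their titles: 3 control libraries and 3 libraries of denuded oocytes (DO), each with a replicate number of 1, 2 or 3. Control oocytes matured as intact COCs and were stripped of cumulus cells by vortexing in hyaluronidase only after maturation. DO were stripped by vortexing in hyaluronidase before maturation and matured alone, and their zona was later digested with pronase. In both groups the oocytes came from slaughterhouse ovaries, those with a visible polar body were kept, and oocytes of repeated collections were pooled into each library. The study entered the ovary pool as a batch; here the replicate number was taken to stand for that pool, which neither the labels nor the methods state. Neither group received the drug used elsewhere in the series. In the remaining groups at 22 h, COCs were treated with carbenoxolone (CBX), a gap junction blocker, or denuded oocytes shared the medium of COCs without contact (cocult). These are used only for values set beside the members. The pronase step and the time of cumulus removal differ together between the 2 groups, so their parts in any difference cannot be told apart.

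MicroRNAs (miRNAs) are short RNAs, cut from a hairpin precursor, that are loaded into Argonaute proteins and pair with target mRNAs mainly through the seed, bases 2 to 8. The cumulus cells around a mammalian oocyte reach it through projections that end in gap junctions, and they also release vesicles that carry small RNA. Maturation proceeds with little transcription in the oocyte and relies largely on stored RNA. The study asked whether miRNAs also pass between cumulus cells and oocyte, and the origin of the counted RNA was not measured here. No miRNA marks the oocyte alone, and the labelled cell type could not be checked against a defining miRNA.

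The sequences of 9 predicted miRNAs on which the results turn are given here, 5′ to 3′ with the seed in capitals. They are shown because predicted miRNAs have no standard name, and they include the 6 that the study lists for control against DO at 22 h.
predicted miR-906: gAGGGAUCccugccuagcggg
predicted miR-559: gGCGCGCCcccgccgcgc
predicted miR-318-0: gCGCGCCCccgccgcgcg
predicted miR-895: gCGCCCCCggggccgcgg
predicted miR-879: uCUGCUGGaacugcaacu
predicted miR-672: gACCGAAGuggggaaagg
predicted miR-432: uGCGGGAUcuuuaguugugg
predicted miR-321: uCAGACGGuaaagcaucugccug
predicted miR-162: uCCAUCUGgacggcuuggcauuggg
No 2 of these 9 share a seed. Predicted miR-559 and predicted miR-318-0 share a run of 17 bases, shifted by 1 position, and both consist of G and C only (100%), as does predicted miR-895. Predicted miR-906 is 71.4% G and C, predicted miR-162 60%, and predicted miR-879 and predicted miR-432 50%. For bta-miR-21-5p, the known miRNA with the smallest p-value, the sequence targeted by the RT-qPCR assay of the study is shown.
miR-21-5p: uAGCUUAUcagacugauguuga

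On the ARS-UCD1.2 assembly, the hairpin of predicted miR-906 was placed at chrM:16169-16279 on the minus strand, the mitochondrial chromosome. The hairpin of predicted miR-559 was placed at chr27:6219131-6219238 (minus strand), that of predicted miR-318-0 at chr17:69639696-69639803 (plus strand) and that of predicted miR-321 at chr17:26339280-26339394 (minus strand). Those of predicted miR-879, predicted miR-672 and predicted miR-432 lay at chr8:63779353-63779460 (minus strand), chr3:2472195-2472302 (plus strand) and chr21:21809645-21809752 (plus strand). Predicted miR-162 was placed at chr13:76526680-76526794 (minus strand) and predicted miR-895 at chr9:93405029-93405136 (plus strand). The genes at these positions were not looked up here.

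The control libraries held 131920, 74337 and 94375 counts on miRNAs and the DO libraries 75302, 58547 and 64631. Totals were lower in DO for every replicate number (100211 ± 29232 in control, 66160 ± 8482 in DO, SD, n = 3). The groups overlapped only in that the lowest control total (74337) was below the highest DO total (75302). For this difference the exact two-sided permutation p was 0.2, where 0.1 is the smallest that 3 against 3 libraries allow. So few libraries cannot decide whether depth differed between the groups. Known miRNAs of miRBase took 44.0% ± 1.32 of the counts in the control group and 42.5% ± 2.05 in DO (SD, n = 3, exact permutation p = 0.5), and predicted miRNAs took the rest. Of 1995 miRNAs, 1245 were seen in 1 or more of the 6 libraries and 775 in all 6. Between 1034 and 1066 were detected per control library and between 974 and 1000 per DO library, but at the depth of the smallest library (58547 counts) the expected numbers were 938 to 998.9 and 959.7 to 981.3, which overlap. Levels are given as CPM, counts scaled to a common library total. Depending on the library, 3 counts amount to 22.7 to 51.2 CPM, a floor that covers counting error only. Single libraries stood apart in different ways. In the second control library, 19 of the 445 tested miRNAs were more than 2 times above both other control libraries, against 3 and 5 in the others and 3 to 9 in DO libraries. In the first control library, 19 miRNAs were as far below both others, against 9 and 13, and in the first DO library 17 were, against 6 and 9. The calls that change without a replicate are therefore given with the miRNAs concerned.

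No miRNA of the 445 tested passed the threshold for a DE miRNA, an adjusted p-value under 0.05 together with a log2 fold change of 1 or more in either direction, between DO and control oocytes at 22 h (0.00% called, smallest adjusted p = 0.194, edgeR's quasi-likelihood test with the replicate number as a block). The fit compared DO over control, with TMM normalization and Benjamini-Hochberg adjustment. At an unadjusted p-value under 0.05 there were 34 miRNAs, 26 higher in DO (5.84% of those tested) and 8 lower (1.80%). With library sizes taken from the deduplicated reads in place of the miRNA counts, the split was 9 higher and 37 lower. Since some predicted miRNAs carry identical counts, these 34 stood for 30 distinct count profiles. The fit without the block gave 4 DE miRNAs (0.899%), namely predicted miR-559, its copy predicted miR-560, predicted miR-835 and predicted miR-906. DESeq2 with the block called the same 4 by name. The robust option of edgeR called 3 (0.674%): miR-906, miR-319 and miR-318-0, all predicted. Leaving out the second replicate gave 19 calls (4.03%), leaving out the first gave 6 (1.38%), and leaving out the third gave 0. Such fits hold 2 libraries per group and leave few residual degrees of freedom. Very small adjusted p-values from them, here and below, say little about the spread of a single miRNA between replicates.

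Most differences were small. The median log2 fold change over the 445 was -0.013, the quartiles were -0.20 and 0.26, and 96.2% lay within a fold change of 2. The 115 known miRNAs tested had a median of -0.065 and the 330 predicted ones a median of 0.019. The median standard error (SE) of a log2 fold change was 0.30. Of the 26 miRNAs higher in DO at an unadjusted p under 0.05, 22 were predicted and 4 known, with log2 fold changes from 0.38 to 2.17. Of the 8 lower ones, 4 were predicted and 4 known, from -0.61 to -1.43. All 3 replicate pairs had the same direction in 33 of the 34, and predicted miR-171, with 2 of 3 pairs, was the exception. The 34 had been selected by a fit that blocks on these pairs. That selection favours pairs of the same direction, so the agreement is not independent evidence.

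**Figure D1:**
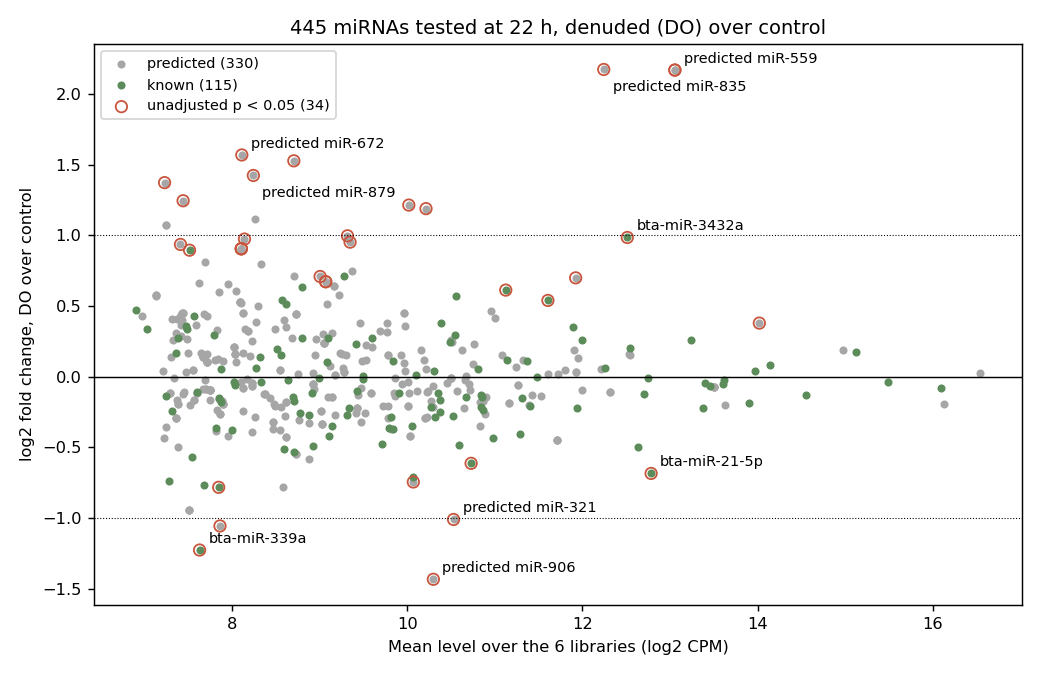
Mean level over the 6 libraries (x axis, log2 CPM) against the log2 fold change of DO over control at 22 h (y axis) for the 445 miRNAs tested, with known miRNAs in green, predicted ones in grey and the 34 with an unadjusted p under 0.05 circled. Predicted miR-559 and predicted miR-835 sit highest at 2.17 and predicted miR-906 lowest at -1.43, while 96.2% of the points lie between the dotted lines at -1 and 1.

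Predicted miR-559 and predicted miR-835 were the miRNAs with the largest difference toward DO. Predicted miR-559 was at 1706, 6256 and 2530 TMM-normalized CPM in control replicates 1, 2 and 3 and at 13313, 10828 and 16492 in the DO replicates. Every DO library was above every control library, and the second control library was the nearest to DO. The log2 fold change was 2.17 (SE 0.43, unadjusted p = 0.0015, adjusted p = 0.194 from edgeR), higher in 3 of 3 pairs. An exact permutation test over the 6 libraries gave p = 0.1. In every library the counts of predicted miR-560 and predicted miR-559 were identical, so the pair is 1 measurement. Without the block the adjusted p of predicted miR-559 was 0.040. With the robust option it was 0.60, and with DESeq2 1.1e-05. It passed the threshold without replicate 1 (log2 fold change 1.74, adjusted p = 2.7e-06) and without replicate 2 (2.84, adjusted p = 3.4e-22), and did not without replicate 3 (1.86, adjusted p = 0.83). These p-values rest on few residual degrees of freedom and do not measure the spread of this miRNA between replicates.

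Predicted miR-835, for which no sequence is printed, followed the same order of libraries within the control group. It was at 971, 3748 and 1351 CPM in control and at 8178, 6442 and 8439 CPM in DO, again without overlap. Its log2 fold change was 2.17 (SE 0.44, adjusted p = 0.194, and 0.043 without the block). It passed the threshold without replicate 1 (1.70, adjusted p = 2.5e-05) and without replicate 2 (2.87, adjusted p = 3.4e-22), and did not without replicate 3 (1.90, adjusted p = 0.83). As for predicted miR-559, these p-values rest on few residual degrees of freedom.

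Predicted miR-318-0, which shares 17 bases with predicted miR-559, was higher in DO in 3 of 3 pairs, but its groups overlapped. It was at 421, 1130 and 585 CPM in control and at 706, 2108 and 2179 CPM in DO, where the first DO library lay between the control libraries. The log2 fold change was 1.19 (SE 0.28, adjusted p = 0.26, and 0.44 without the block). Predicted miR-319 had nearly the same values, with 360, 1020 and 484 CPM in control and 638, 1802 and 1917 CPM in DO, and a log2 fold change of 1.21 (SE 0.30, adjusted p = 0.27). With the robust option the adjusted p of predicted miR-318-0 was 0.034 and that of predicted miR-319 was 0.044. Without replicate 2 both passed the threshold, at 1.37 (adjusted p = 0.0028) and 1.45 (adjusted p = 0.0028), and without replicate 3 neither did (adjusted p = 0.81). Without replicate 1 predicted miR-318-0 passed (1.39, adjusted p = 0.038), whereas predicted miR-319 had an adjusted p of 0.060. The third miRNA of G and C only, predicted miR-895, was at 176, 482 and 474 CPM in control and at 258, 884 and 757 CPM in DO. It was named for its sequence after its values were seen, and its log2 fold change was 0.71 (SE 0.27, adjusted p = 0.63).

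Several predicted miRNAs of low abundance were also higher in DO. Predicted miR-879 was at 76.5, 234 and 192 CPM in control and at 380, 442 and 433 CPM in DO, from 10 to 28 counts per library. Its groups did not overlap, and the log2 fold change was 1.42 (SE 0.36, adjusted p = 0.27). The adjusted p was 0.021 without replicate 2, 0.74 without replicate 1 and 0.81 without replicate 3. Predicted miR-672 was at 145, 68.9 and 161 CPM in control and 611, 408 and 170 CPM in DO, so that the third DO library was close to control. Its log2 fold change was 1.57 (SE 0.48, adjusted p = 0.43). Predicted miR-432 was at 222, 165 and 131 CPM in control and at 1359, 391 and 139 CPM in DO. A single DO library, the first, carried most of this difference: the log2 fold change was 1.53 (SE 0.50, adjusted p = 0.51) with it and 0.71 without replicate 1 (adjusted p = 0.99), and without replicate 2 the adjusted p was 0.021. Predicted miR-494 had 13, 5 and 5 counts in control and 16, 8 and 14 in DO, with a log2 fold change of 1.37 (SE 0.38, adjusted p = 0.38). Predicted miR-162, at a higher level, was at 3320, 3514 and 2137 CPM in control and at 4660, 4913 and 4683 CPM in DO. The DO libraries were close together and above all control libraries (log2 fold change 0.70, SE 0.20, adjusted p = 0.38).

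Predicted miR-906, placed on the mitochondrial chromosome, had the smallest p-value of all miRNAs and was lower in DO. It was at 1323, 1695 and 2359 CPM in the control libraries and at 774, 493 and 680 CPM in the DO libraries. The highest DO library was below the lowest control library, and DO was lower in all 3 pairs. The mean was 1792 ± 524 CPM in control and 649 ± 143 CPM in DO (SD, n = 3), a log2 fold change of -1.43 (SE 0.27, unadjusted p = 0.0013, adjusted p = 0.194 from edgeR). Without the block the adjusted p was 0.040, with the robust option 0.0096 and with DESeq2 0.0098. It passed the threshold without replicate 1 (-1.78, adjusted p = 0.0031) and without replicate 2 (-1.27, adjusted p = 0.0015), and did not without replicate 3 (-1.26, adjusted p = 0.81). Few residual degrees of freedom were left in these fits.

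Predicted miR-321 was lower in DO in all pairs, although the groups overlapped. It was at 1430, 1075 and 3407 CPM in control and at 611, 952 and 1159 CPM in DO, and the third control library was far above the others. The log2 fold change was -1.01 (SE 0.29, adjusted p = 0.38), and without replicate 2 it was -1.39 (adjusted p = 0.00013). It did not pass the threshold without replicate 1 (-0.89, adjusted p = 0.50) or without replicate 3 (-0.72, adjusted p = 0.83). Predicted miR-218 had tight groups, with 1270, 1461 and 1199 CPM in control and 842, 748 and 742 CPM in DO, and a log2 fold change of -0.75 (SE 0.21, adjusted p = 0.38). Predicted miR-210 (229, 482 and 141 CPM in control, 190, 153 and 46.4 CPM in DO) had overlapping groups and a log2 fold change of -1.06 (SE 0.39, adjusted p = 0.63). Predicted miR-557 was at 382, 496 and 464 CPM in control and at 340, 204 and 232 CPM in DO, a log2 fold change of -0.78 (SE 0.33, adjusted p = 0.66).

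The 6 predicted miRNAs that the study lists for this comparison (miR-906, miR-321, miR-318-0, miR-432, miR-672 and miR-879) were chosen on these same libraries, so their directions are not independent evidence. The study called all 6 significant in the same directions, at the same thresholds and with the same kind of test. Here all 6 had an unadjusted p under 0.05, and 0 of the 6 passed the threshold in the block fit. Restricted to miRNAs of the supplementary counts, the block fit tested 343 in place of 445. Of the 6, it called predicted miR-906 only. What lay behind the difference from the study was not tested.

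**Figure D2:**
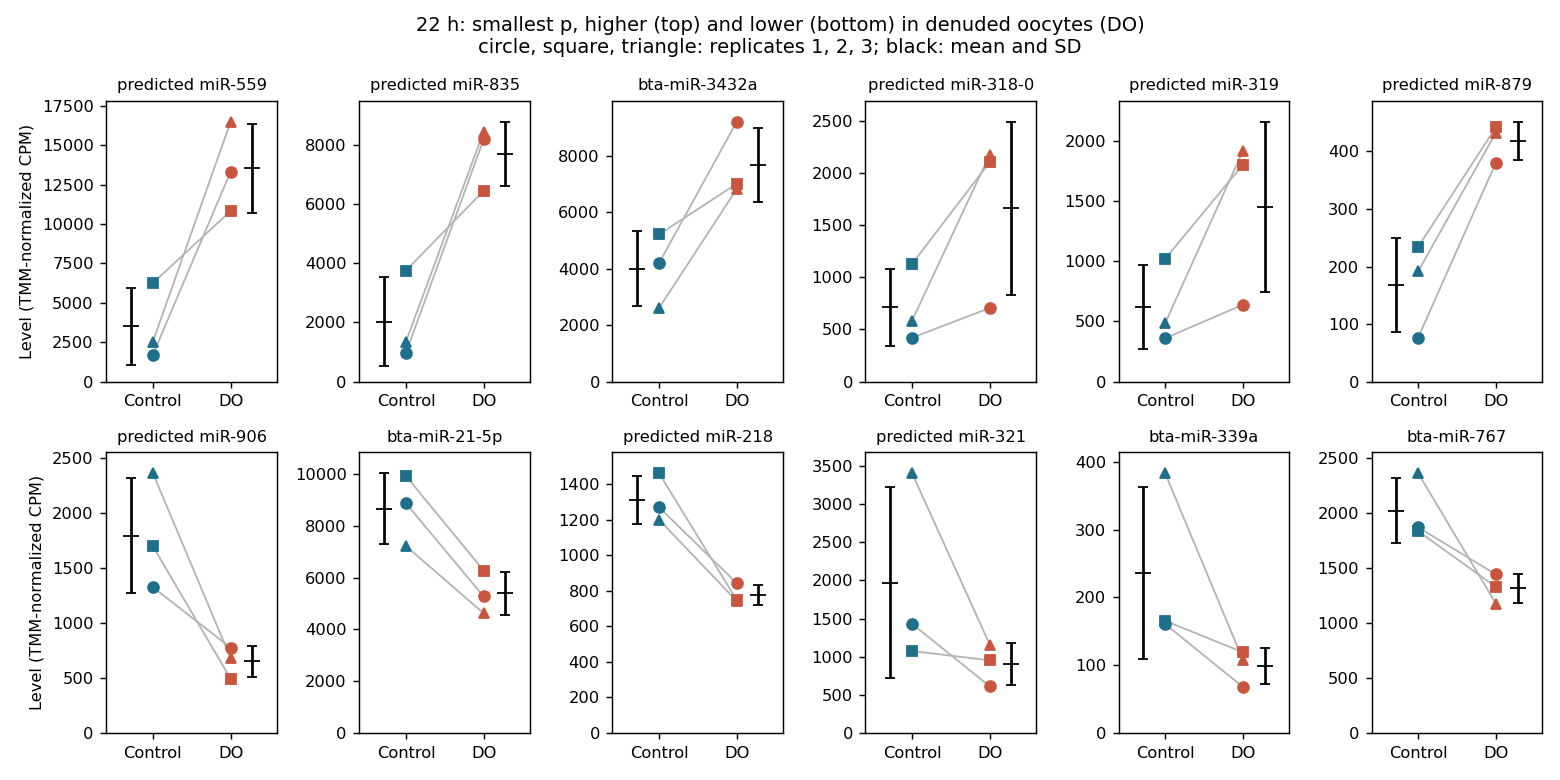
TMM-normalized CPM (y axis, starting at 0) in the 3 control and 3 DO libraries at 22 h for the 6 miRNAs with the smallest p higher in DO (top) and the 6 lower in DO (bottom), with lines joining libraries of the same replicate number and black bars for mean and SD. The libraries of predicted miR-559, miR-835, miR-879, miR-906 and miR-218 and of bta-miR-21-5p, bta-miR-3432a, bta-miR-339a and bta-miR-767 do not overlap between the groups, and those of predicted miR-318-0, miR-319 and miR-321 do.

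Among known miRNAs, 8 of the 115 tested had an unadjusted p under 0.05, 4 in each direction, and none passed the threshold. The 3 libraries of each group did not overlap for 9 known miRNAs that were higher in DO and 10 that were lower. Over all 445 tested, such non-overlap occurred for 6.97% (31 miRNAs, higher) and 4.27% (19 miRNAs, lower).

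bta-miR-21-5p, which is studied in granulosa and cumulus cells as a miRNA that favours cell survival, was lower in DO. It was at 8866, 9921 and 7217 CPM in control and at 5271, 6272 and 4621 CPM in DO, with no overlap and DO lower in all 3 pairs. The mean level was 8668 ± 1363 CPM in control and 5388 ± 832 CPM in DO (SD, n = 3). The log2 fold change was -0.68 (SE 0.15, unadjusted p = 0.0024, adjusted p = 0.21), below the fold threshold, and between -0.65 and -0.72 when 1 replicate was left out. The adjusted p was 0.27 without the block and 0.045 with the robust option.

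bta-miR-3432a was higher in DO, at 9197, 7003 and 6816 CPM against 4192, 5209 and 2601 CPM in control. The groups did not overlap, and the log2 fold change was 0.98 (SE 0.22, adjusted p = 0.21). It passed the threshold with upper-quartile normalization (adjusted p = 0.037) and without replicate 2 (adjusted p = 3.9e-05). It did not pass without replicate 1 (0.91, adjusted p = 0.12), without replicate 3 (0.77, adjusted p = 0.81) or without the block (adjusted p = 0.21). DESeq2 gave an adjusted p of 0.10. With library sizes from the deduplicated reads the log2 fold change was 0.65 (adjusted p = 0.41).

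The let-7 family, which restrains proliferation and growth genes in many tissues, had 8 members tested, of which 4 were higher and 4 lower in DO (median log2 fold change -0.027, against -0.013 over all miRNAs tested). With upper-quartile normalization 3 of the 8 were lower, and with library sizes from the deduplicated reads 6 of the 8. The members with an unadjusted p under 0.05 were both higher. bta-let-7c was at 1889, 2990 and 2772 CPM in control and at 3057, 3910 and 4019 CPM in DO, a narrow gap between the groups (log2 fold change 0.54, SE 0.17, adjusted p = 0.43). bta-let-7b was at 1538, 1667 and 1966 CPM in control and 1983, 3740 and 2442 CPM in DO (log2 fold change 0.61, SE 0.23, adjusted p = 0.63). bta-let-7e, in contrast, had a log2 fold change of -0.48 (SE 0.24, adjusted p = 0.78). Abundant members were closer to 0, with -0.19 (SE 0.14) for bta-let-7f, -0.13 (SE 0.15) for bta-let-7a-5p and -0.065 (SE 0.20) for bta-let-7i. The groups did not overlap for bta-let-7b and bta-let-7c, which were higher in DO, nor for bta-let-7f, which was lower. Summed over the family, the level was 59410 ± 3753 CPM in control and 56870 ± 6459 CPM in DO (SD, n = 3, exact permutation p = 0.6).

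The miR-17-92 and related clusters, known as promoters of the cell cycle, had 9 members tested, 2 higher and 7 lower (median -0.14). With upper-quartile normalization 5 of the 9 were lower (median -0.028), and without replicate 3 it was 3 of the 9 (median 0.037). bta-miR-18a was lower, at 298, 262 and 202 CPM in control and 149, 170 and 124 CPM in DO (log2 fold change -0.78, SE 0.30, adjusted p = 0.63). bta-miR-20b was higher, from 5 to 19 counts per control library and 10 to 18 per DO library (log2 fold change 0.89, SE 0.35, adjusted p = 0.63). bta-miR-20a had a log2 fold change of -0.40 (SE 0.19, adjusted p = 0.78), with DO below control in every pair. The summed level of the clusters was 23596 ± 1263 CPM in control and 24225 ± 1068 CPM in DO (SD, n = 3).

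Of the remaining known miRNAs with the smallest p-values, bta-miR-339a was lower in DO, with 161, 165 and 383 CPM in control and 67.9, 119 and 108 CPM in DO, from 5 to 7 counts per DO library. Its log2 fold change was -1.23 (SE 0.38, adjusted p = 0.43). bta-miR-767 was lower without overlap, at 1866, 1833 and 2359 CPM in control and 1440, 1326 and 1175 CPM in DO (log2 fold change -0.61, SE 0.21, adjusted p = 0.53). bta-miR-105a, which lies next to miR-767 in the human genome, had a log2 fold change of 0.35 (SE 0.18, adjusted p = 0.78), toward higher levels in DO. bta-miR-151-3p had a log2 fold change of 0.63 (SE 0.31) and bta-miR-301a one of -0.74 (SE 0.34), both with an adjusted p of 0.78.

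Among miRNAs linked to granulosa and cumulus cells, no member passed the threshold. Of 30 entries, 27 were detected and 15 tested. Of these 15, 12 were lower in DO and 3 higher, and 1 (bta-miR-21-5p) had an unadjusted p under 0.05. The median log2 fold change was -0.28, beside -0.013 over all 445 and -0.065 over the 115 known miRNAs, of which 70 were lower. Lower values were found for 11 of the 15 with upper-quartile normalization and for 9 of 14 without replicate 3 (median -0.18), and for 14 of 14 with library sizes taken from the deduplicated reads (median -0.62), where the median of all miRNAs was -0.36. All 3 pairs were lower for 5 of the 15. That count was not set against the share over all miRNAs tested, so no trait of the list can be read from it. After bta-miR-21-5p came bta-miR-143 (log2 fold change -0.48, SE 0.22, adjusted p = 0.73), a miRNA abundant in stromal and smooth muscle cells. It was at 1713, 1447 and 2117 CPM in control and at 1603, 1020 and 1159 CPM in DO. bta-miR-155, best known from immune cells, was at 6426, 12553 and 3639 CPM in control and at 2717, 7683 and 5039 CPM in DO (log2 fold change -0.50, SE 0.32, adjusted p = 0.86), so its libraries overlapped widely. bta-miR-202, studied in gonads, had a log2 fold change of -0.49 (SE 0.34) and bta-miR-335 one of 0.30 (SE 0.19). The summed level of the list lay between 26237 and 34959 CPM in the control libraries and between 19087 and 26892 CPM in the DO libraries (exact permutation p = 0.2). Of the list, 3 entries were at 0 in all 6 libraries. In pools of oocytes, fewer cells of a type and less RNA per cell cannot be told apart, and the part of remaining cumulus cells in these values was not tested.

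**Figure D3:**
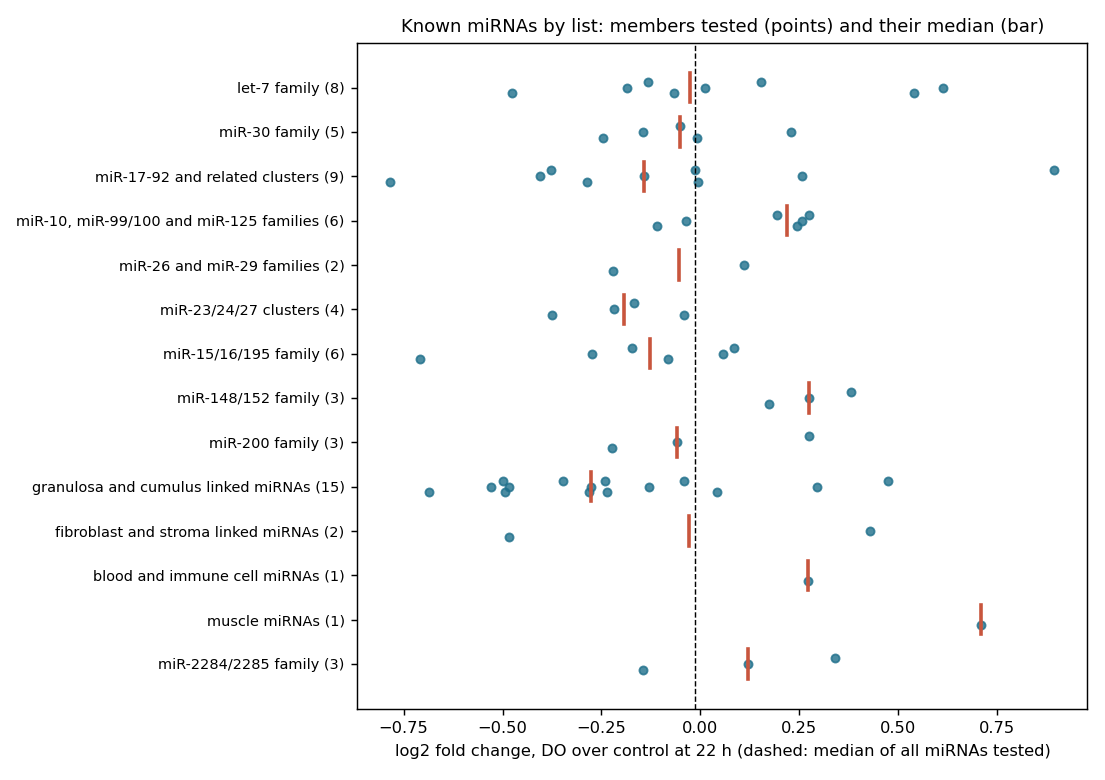
log2 fold change of DO over control at 22 h (x axis) for the tested members of each list of known miRNAs (rows, with the number tested), where each point is a miRNA, the red bar is the median of the list and the dashed line the median of all 445 miRNAs tested. The granulosa and cumulus linked list has its median at -0.28 with 12 of 15 points below 0, and the family of miR-148 and miR-152 its 3 points above 0.

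The remaining families showed no member with an unadjusted p under 0.05. In the miR-10, miR-99/100 and miR-125 families, 4 of 6 were higher (median 0.22), and in the family of miR-148 and miR-152, 3 of 3 (median 0.27), among them bta-miR-152 with 0.38 (SE 0.21, adjusted p = 0.85). With library sizes from the deduplicated reads, 6 of 6 and 2 of 3 of these were lower. In the miR-23/24/27 clusters, 4 of 4 were lower (median -0.19), led by bta-miR-23b-3p with -0.37 (SE 0.22, adjusted p = 0.86), whereas with upper-quartile normalization 3 of the 4 were. The family of miR-15, miR-16 and miR-195 had 4 of 6 lower (median -0.13, and 3 of 6 with upper-quartile normalization), with bta-miR-15a at -0.71 (SE 0.35, adjusted p = 0.78). The miR-30 family had 4 of 5 lower (median -0.051, and 2 of 5 with upper-quartile normalization) and the miR-200 family, typical of epithelium, 2 of 3 (median -0.060, and 1 of 3). In the miR-26 and miR-29 families, 1 of 2 was lower (median -0.054), bta-miR-26a with -0.22 (SE 0.14). In the ruminant family of miR-2284 and miR-2285, 3 of 148 entries were tested, 2 of them higher (median 0.12).

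Lists for cell types other than the oocyte and cumulus gave few testable miRNAs. The fibroblast and stroma linked list had 2 tested of 7, bta-miR-143 and bta-miR-199a-3p, the latter with a log2 fold change of 0.43 (SE 0.32). The blood and immune list had 1 tested of 7, bta-miR-150 with 0.27 (SE 0.27). The muscle list had 1 tested of 8, bta-miR-206, with 5, 172 and 1 counts in control and 9, 16 and 57 in DO. A single control library held nearly all of its control counts, and its log2 fold change was 0.71 (SE 1.61) with the block and -0.87 without it. In the imprinted chromosome 21 cluster, 16 of 47 entries were detected and none was tested. Of the clusters of miR-302 and miR-371, which mark pluripotent stem cells, 0 of 6 entries had a count in any of the 6 libraries.

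The known miRNAs with the most counts in the 6 libraries were at similar levels in both groups. bta-miR-16b lay between 65508 and 76141 CPM in control and between 63123 and 75057 CPM in DO (log2 fold change -0.083, SE 0.13). bta-miR-10b had a log2 fold change of -0.037 (SE 0.13), bta-miR-148a of 0.17 (SE 0.13), bta-miR-16a of 0.084 (SE 0.14), bta-miR-30d of -0.051 (SE 0.14), bta-miR-122 of 0.041 (SE 0.17) and bta-miR-7 of -0.027 (SE 0.14). These differences were smaller than 1.5 times their SE, and a p-value above the threshold does not show that the levels were equal.

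No miRNA with at least 20 counts in the DO libraries was absent from all control libraries. In the other direction, predicted miR-626 had 0, 24 and 0 counts in control and predicted miR-869 0, 23 and 0, and both had 0 in every DO library. Their control counts came from the second control library alone. The miRNAs detected in control libraries only had at most 24 counts in total, and the 47 detected in DO libraries only had at most 11.

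The groups that shared only part of the treatment are set beside these values, and the comparisons with control use the same 3 control libraries. The second CBX library held only 18796 counts (3 counts were 159.6 CPM in it), against 60237 to 158481 in the other CBX and cocult libraries. Predicted miR-906 was at 1811 ± 551 CPM in control, 413 ± 173 CPM in CBX, 931 ± 88.8 CPM in cocult and 646 ± 133 CPM in DO (SD, n = 3, scaled over the 12 libraries of 22 h). Its log2 fold change over control was -2.04 (SE 0.35, adjusted p = 0.12) in CBX and -0.93 (SE 0.25, adjusted p = 0.11) in cocult, beside -1.43 in DO. Without replicate 2 the CBX value was -1.81 (SE 0.25, adjusted p = 1.5e-07), and the second CBX library held 4 counts of predicted miR-906. The fit without replicate 2 also left few residual degrees of freedom. bta-miR-21-5p was at 8727 ± 1182 CPM in control, 4067 ± 703 CPM in CBX, 4908 ± 987 CPM in cocult and 5381 ± 882 CPM in DO. Control was thus above each of the other groups without overlap, with log2 fold changes of -1.08 (SE 0.22, adjusted p = 0.17) in CBX and -0.85 (SE 0.19, adjusted p = 0.0074) in cocult. The CBX value was -0.87 (SE 0.16) without replicate 2. DO and cocult libraries overlapped for bta-miR-21-5p, and DO over cocult gave a log2 fold change of 0.12 (SE 0.18, adjusted p = 0.90).

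Predicted miR-559 had another order of groups, with 3486 ± 2317 CPM in control, 2969 ± 2195 CPM in CBX, 5705 ± 2952 CPM in cocult and 13507 ± 2804 CPM in DO (SD, n = 3). The lowest CBX value, 694 CPM, was 13 counts of the second library, and CBX over control gave -0.10 (SE 0.79) with replicate 2 and 0.91 (SE 0.18) without it. All DO libraries, the lowest at 10965 CPM, were above all libraries of the remaining groups, the highest of which was at 7673 CPM. DO over cocult gave a log2 fold change of 1.39 (SE 0.32, adjusted p = 0.19), and cocult over control 0.70 (SE 0.22, adjusted p = 0.18). Predicted miR-835 gave 1.35 (SE 0.34) for DO over cocult. Predicted miR-321 gave -0.99 (SE 0.16, adjusted p = 0.059) for DO over cocult and -0.078 (SE 0.25) for cocult over control. bta-miR-3432a was at 5200, 16496 and 5652 CPM in CBX, the highest of them in the library of 18796 counts. Its log2 fold change over control was 1.02 (SE 0.27, adjusted p = 0.33) in CBX, 0.68 (SE 0.18, adjusted p = 0.0066) without replicate 2, and 0.57 (SE 0.20, adjusted p = 0.27) in cocult.

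**Figure D4:**
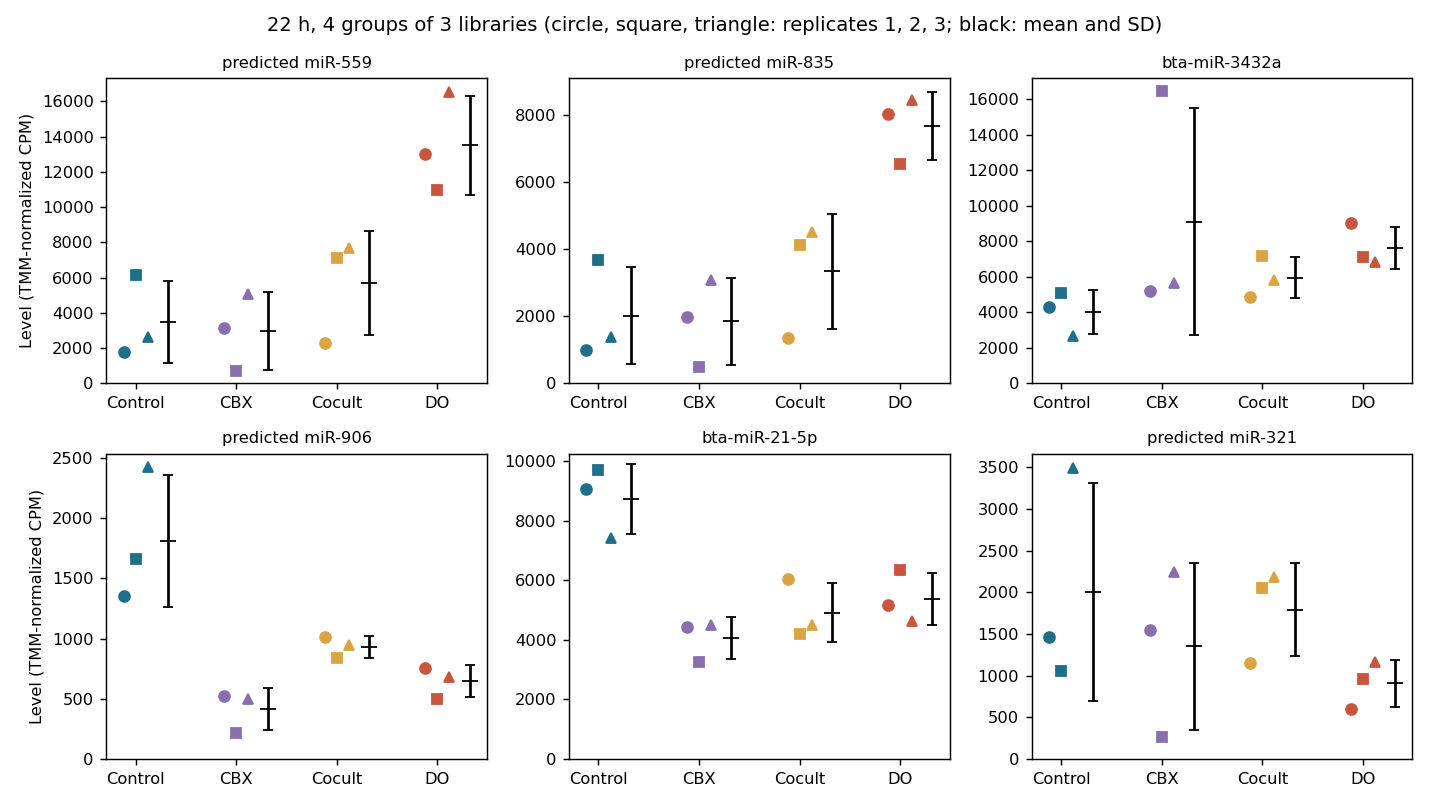
TMM-normalized CPM (y axis, starting at 0) at 22 h in control, CBX, cocult and DO libraries, 3 per group, scaled over the 12 libraries, with black bars for mean and SD. For predicted miR-559 the DO libraries (10965 CPM and above) are apart from all others, while for predicted miR-906 and bta-miR-21-5p the control libraries are apart from the other 3 groups.

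The series holds the same contrast at 1 h and 6 h. In a fit of the 18 control and DO libraries, the difference between DO and control at 22 h was tested against that at 1 h and at 6 h. None of 525 miRNAs passed in either test (0.00% called, smallest adjusted p = 0.997 and 0.733), and 19 and 29 had an unadjusted p under 0.05. The miRNAs named for these times were chosen for their difference at 22 h. That choice favours a larger DO effect at 22 h than at 1 h or 6 h. Their unadjusted p-values are therefore no independent evidence of a change with time. bta-miR-21-5p was at 4213 ± 1377, 3341 ± 118 and 8919 ± 1013 CPM at 1, 6 and 22 h in control and at 3792 ± 590, 4152 ± 855 and 5471 ± 777 CPM in DO (SD, n = 3, scaled over the 18 libraries). The groups overlapped at 1 h and 6 h and not at 22 h. The DO effect at 22 h was lower by 1.00 on the log2 scale than at 6 h (SE 0.32, unadjusted p = 0.0097, adjusted p = 0.733). Without replicate 1 that difference was -0.93 (SE 0.39).

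Predicted miR-559 was at 4356 ± 2858, 3121 ± 4163 and 3548 ± 2293 CPM in control and at 1845 ± 1230, 3242 ± 1144 and 13795 ± 3073 CPM in DO at 1, 6 and 22 h. The DO effect at 22 h was higher than at 1 h by 3.38 on the log2 scale (SE 1.25, unadjusted p = 0.020, adjusted p = 0.997), and higher than at 6 h by 1.18 (SE 1.25). At 6 h the first control library held only 20180 counts, and its value for this miRNA was 1 count, below the floor of 148.7 CPM in that library. The other control libraries at 6 h were at 7860 and 1448 CPM, and without replicate 1 the difference between 22 h and 6 h was 1.58 (SE 1.45). Predicted miR-906 was at 1316 ± 591, 926 ± 824 and 1862 ± 608 CPM in control and at 1508 ± 1024, 796 ± 89.4 and 661 ± 149 CPM in DO. Its DO effect at 22 h differed from that at 1 h by -1.52 (SE 0.59, unadjusted p = 0.026) and from that at 6 h by -1.51 (SE 0.61, unadjusted p = 0.031), with adjusted p-values of 0.997 and 0.733. Without replicate 1 the latter difference was -1.66 (SE 0.66).

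**Figure D5:**
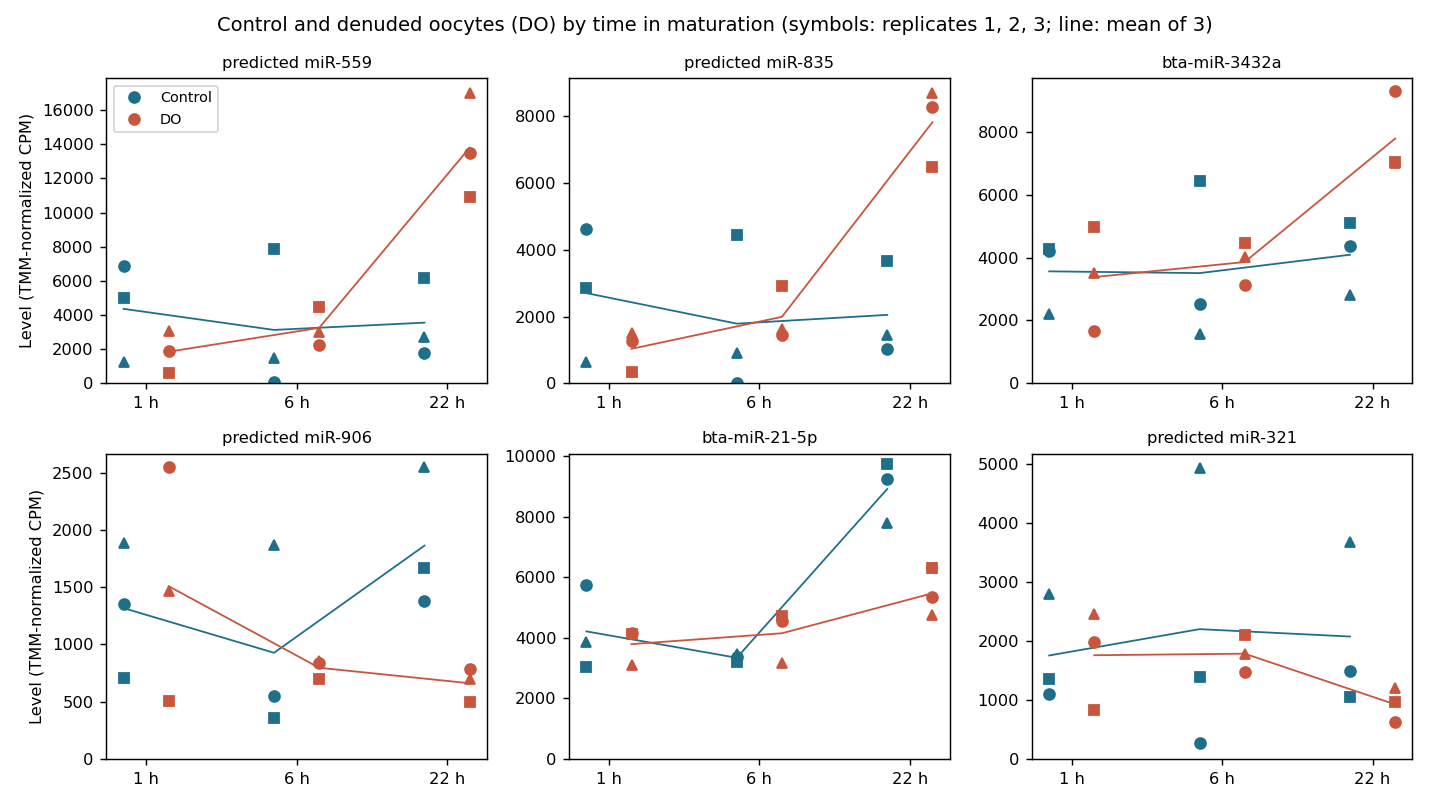
TMM-normalized CPM (y axis, starting at 0) of 6 miRNAs at 1, 6 and 22 h (x axis, evenly spaced categories) in control and DO libraries, with a symbol per replicate and a line through the means of 3. The groups overlap at 1 h and 6 h in every panel, and at 22 h they are apart for 5 of the 6 miRNAs, predicted miR-321 being the exception. The 6 were chosen for small p-values at 22 h, which favours separation at that time over 1 h and 6 h.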

How the data were processed

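The deposited values are whole-number counts per mature miRNA. Per the paper and the submitters' processing notes, the authors checked reads with FastQC 0.11.9, removed duplicates by unique molecular identifier with UMI-tools, aligned to ARS-UCD1.2, and counted known miRNAs of miRBase and miRNAs predicted by miRPro, without normalization. The notes name UMI-tools 1.1.2, and its role in these files is as the paper gives it. The rule for reads shared between copies is not given in the sources used here.

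The known and predicted tables (1030 and 965 entries) were joined, and library sizes were the sums of all counts. The 6 libraries were fitted with edgeR 4.0.16 (limma 3.58.1, R 4.3.3): filterByExpr with a minimum count of 10 and total of 15, TMM, quasi-likelihood F-test in the edgeR 3 form, replicate number as a block, Benjamini-Hochberg adjustment. DE miRNAs had to reach both adjusted p below 0.05 and a log2 fold change of 1 or beyond, up or down. The SE is the log2 fold change divided by the square root of F. The study's methods enter the ovary pool as batch, and the replicate number was assumed to stand for it, which no source used here states. Same-numbered libraries correlated in their deviations from the group means with r of 0.30, 0.0068 and -0.014, so the data do not establish the pairing, and values without the block are given beside those with it where the call differs. Replicates differed by more than sampling noise (chi-square per degree of freedom 3.86 to 9.73). Per the paper, the experiment was repeated and oocytes of different repeats were pooled before RNA isolation. The labels do not say which repeats each library holds, so p-values measure the spread between these libraries. Fits that leave out a replicate have few residual degrees of freedom, and their p-values measure that spread poorly. The procedures were tested on simulated data.

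Named miRNAs were those past the threshold, the 10 with the smallest p in each direction, the 6 smallest among known ones per direction, the 10 known ones with the most counts, the 6 the study lists, up to 3 per list, and those with at least 20 counts in 1 group and 0 in the other. The members and lists were chosen with earlier results of these data known. Alternatives were other normalizations, filters, tools (DESeq2 1.42.0), sets of libraries or miRNAs, the absence of the block, and leaving out replicates; leaving out single libraries without the block, and replicate 2 from CBX against control, was added after seeing the data.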

Additional observations from a re-analysis of the deposited data

How the results depend on the processing

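Against 0 calls with the replicate block, fits without the block, with DESeq2 and with the stricter low-count filter gave 4 each, the robust option 3, upper-quartile normalization 5, library sizes from deduplicated reads 5, and restriction to miRNAs listed in the supplementary counts gave 2. Calls when a replicate was left out ranged from 0 to 19. The fits with RLE size factors, the edgeR 4 form, no filter, known and predicted miRNAs apart, copies tested once, 12 or 36 libraries, or no fold change threshold gave 0. Without the block, leaving out control replicate 2 gave 10 calls and leaving out any other single library gave 0. The 34 miRNAs with an unadjusted p under 0.05 became 16 with DESeq2 and 69 without a filter, and ranged from 27 to 58 when a replicate was left out. Of these, 76.5% were higher in DO, against 19.6% with deduplicated library sizes, 82.5% with upper-quartile normalization, 61.1% with the robust option, 60.9% without a filter, 60% with the supplementary counts, 54.1% with 12 libraries and 50% with 36 libraries. Deduplicated library sizes moved the median of all miRNAs by -0.35 and upper-quartile normalization by 0.12. Counts on miRNAs were 1.00% ± 0.194 of the deduplicated reads in control and 0.793% ± 0.059 in DO (SD, n = 3, exact permutation p = 0.2). With deduplicated library sizes, this share enters every log2 fold change. The difference in DO effect between 22 h and 1 h gave 3 calls without a filter (predicted miR-559, miR-560 and miR-835) and 0 otherwise, and that between 22 h and 6 h gave 0 in every fit. The known share in DO minus control was -1.55 percentage points, and from -2.51 to 0.22 when a replicate was left out. What lay behind the share of reads on miRNAs, and behind the other shifts, was not tested.

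Of the named miRNAs, none with an unadjusted p under 0.05 turned direction for DO over control in any fit. With deduplicated library sizes, log2 fold changes turned for bta-miR-125b (-0.079), bta-miR-335 (-0.043), bta-miR-148a (-0.16), bta-miR-125a (-0.096), bta-miR-148b (-0.062), bta-miR-200c (-0.078), bta-miR-150 (-0.067), bta-miR-30b-5p (-0.11), bta-miR-2284x (-0.22), bta-miR-99a-5p (-0.0695), bta-miR-26b (-0.23), bta-miR-16a (-0.25), bta-miR-2285p (-0.030) and bta-miR-122 (-0.29). With known and predicted miRNAs apart and with upper-quartile normalization, they turned for bta-miR-16b (0.0054 and 0.035), bta-miR-30d (0.038 and 0.067), bta-let-7i (0.022 and 0.052), bta-miR-10b (0.051 and 0.081), bta-miR-7 (0.061 and 0.091) and bta-miR-200a (0.041 and 0.051). bta-miR-206 turned without the block (-0.87), with 12 libraries (-0.16) and with 36 (-0.18). With a replicate left out, log2 fold changes ranged across 0 for bta-miR-206 (-1.58 to 3.87), bta-miR-2285p (-0.24 to 1.29), bta-miR-27b (-0.39 to 0.042), bta-miR-141 (-0.38 to 0.089), bta-miR-200a (-0.33 to 0.27), bta-miR-99a-5p (-0.18 to 0.53), bta-let-7i (-0.26 to 0.18), bta-miR-122 (-0.15 to 0.17), bta-miR-16a (-0.022 to 0.16), bta-miR-16b (-0.12 to 0.0005), bta-miR-10b (-0.11 to 0.023), bta-miR-30d (-0.11 to 0.026) and bta-miR-7 (-0.084 to 0.032). For CBX over control without replicate 2, predicted miR-559 turned to 0.91. With 2 pairs left, the spread between replicates rests on few residual degrees of freedom. Totals of 58547 to 131920 counts limit what can be detected for miRNAs near the floor of 3 counts.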

Other observations

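Leaving out the second replicate brought in miRNAs that were not named by the rule and were chosen here after their values were seen. bta-miR-184 had 31, 203 and 116 counts in control and 56, 85 and 166 in DO, with a log2 fold change of 0.57 (SE 0.48, adjusted p = 0.89) in the 6 libraries and 1.37 without replicate 2. Predicted miR-485 had 119, 340 and 74 counts in control and 147, 103 and 137 in DO, with log2 fold changes of 0.42 (SE 0.56) and 1.32. Predicted miR-838 had 278, 562 and 197 counts in control and 368, 149 and 225 in DO, with 0.19 (SE 0.53) and 1.04. In all 3, the second control library held the most counts of the 6 libraries. bta-miR-151-5p, with 12, 1 and 4 counts in control and 3, 9 and 11 in DO, was below the filter in the 6 libraries and passed the threshold without replicate 1, at 2.47.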
